A study of Homo sapiens with 31 samples.

Results

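Caspases are proteases that take cells apart in apoptosis, and they cut behind aspartate residues with a cysteine in their active site. In the mitochondrial pathway, cytochrome c leaves the mitochondria and binds APAF1, which then assembles into the apoptosome, the platform on which caspase-9 becomes active. Death receptors use caspase-8 and caspase-10 as initiators instead. XIAP is an inhibitor that binds active caspase-9 and some, but not all, of the effector caspases. The 8 genes described here are CYCS (cytochrome c), APAF1, the initiators CASP9, CASP2, CASP8 and CASP10, the effector CASP6, and DFFA, the inhibitor and chaperone of the caspase-activated DNase, which effector caspases cleave. They were taken by symbol from the 30667 gene identifiers of the count table, and all 8 were present and passed the filter on low counts in every comparison.

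NALM-6, a B-cell precursor acute lymphoblastic leukemia cell line, had been transduced with lentiviral vectors carrying a miR30-embedded shRNA, under either the promoter of the human EF1α gene or the SFFV promoter, which comes from a mouse retrovirus. The control cells received EF1α/sh-CTRL or SFFV/sh-CTRL, and the knockdown (KD) cells received EF1α/sh-XIAP, called moderate XIAP KD in the study, or SFFV/sh-XIAP, called strong XIAP KD. Samples were taken 4, 10 and 13 days after transduction, 31 in all, with 2 or 3 for each construct and day. At days 10 and 13 together the EF1α constructs had 6 control and 5 KD samples, and the SFFV constructs 4 control and 6 KD samples. In the study's vector scheme the sh-CTRL cells carried mTagBFP and the sh-XIAP cells eGFP as marker. Its methods for gene expression name the vectors without the markers. If the sequenced cells carried these markers, the marker and the shRNA cannot be told apart. The sample labels describe cells followed in vitro, whereas the series text has them isolated from mouse bone marrow, and the labels were followed here. Nothing says that samples of a group came from separate cultures, so p-values measure the spread between these samples, which may be technical.

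The libraries held between 312852 and 1153668 unique molecular identifiers (UMIs), each counting 1 captured transcript end (median 603822). Levels are given as CPM, the UMIs of a gene per 1000000 UMIs of the library. The precursor B cell markers PAX5 (137 to 233 CPM), EBF1 (265 to 381 CPM) and DNTT (649 to 774 CPM) were detected in all 31 samples. Of 8 markers of other cells, the 5 analysed here (CD14, LYZ, MPO, HBB and COL1A1) had a summed level of at most 25.6 CPM. XIAP, the targeted gene, had 196 UMIs over all samples. At days 10 and 13 it ranged from 3.81 to 18.1 CPM in the EF1α/sh-CTRL samples and from 7.63 to 11.5 under moderate KD, and from 4.50 to 15.4 in the SFFV/sh-CTRL samples and from 6.35 to 14.6 under strong KD. These ranges overlapped. The log2 fold change of XIAP was −0.26 (95% interval −1.06 to 0.53, limma-voom adjusted p = 0.975) with strong KD. With moderate KD it was −0.17 (−0.91 to 0.57, adjusted p = 0.994). The XIAP counts thus showed no reduction of the transcript with either KD. A reduction to 1 part in 2 lay just within the interval of strong KD and outside that of moderate KD. Much deeper reductions lay outside both intervals. The study measured its KD as protein by Western blot, and RNA and protein were not compared here. The XIAP counts did not check the labels.

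The 5 caspases share the stretch around the catalytic cysteine, and it is shown to make clear how alike these genes are there. Since UMIs count transcript ends, this internal stretch does not tell whether the counts of these genes can be told apart. The transcript ends were not compared. The coding bases below are read from GENCODE 29 on GRCh38, 5′ to 3′ along the transcript, with the codon of the catalytic cysteine in capitals.
CASP2: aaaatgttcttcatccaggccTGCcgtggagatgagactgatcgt
CASP6: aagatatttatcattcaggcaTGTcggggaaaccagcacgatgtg
CASP8: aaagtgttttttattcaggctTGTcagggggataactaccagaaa
CASP9: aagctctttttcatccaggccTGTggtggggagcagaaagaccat
CASP10: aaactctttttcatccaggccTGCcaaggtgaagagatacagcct
The marked codon is number 320 in CASP2, 163 in CASP6, 360 in CASP8, 287 in CASP9 and 401 in CASP10. The stretch lies on the plus strand within exon 9 of CASP8 (chr2:201285070-201285114) and within exon 9 of CASP10 (chr2:201209327-201209371), neighbours on chromosome 2. It spans exons 8 and 9 of CASP2 on the plus strand (chr7:143300264-143303797, intron included), exons 5 and 6 of CASP6 on the minus strand (chr4:109690983-109694542) and exons 6 and 7 of CASP9 on the minus strand (chr1:15495439-15504641). Over its 45 bases, pairs of these genes were between 53.3% (CASP6 and CASP10) and 73.3% identical (CASP2 and CASP10, and CASP9 and CASP10). The other 3 genes lie at chr7:25120091-25125361 (CYCS, minus strand), chr12:98645141-98735433 (APAF1, plus strand) and chr1:10456522-10472526 (DFFA, minus strand).

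Cytochrome c dominated the group in NALM-6. CYCS had 4087 UMIs over the 31 samples and a mean level of 197 ± 22.0 CPM (SD, n = 31), between 144 and 234. DFFA followed at 56.9 ± 10.3 CPM and APAF1 at 43.7 ± 10.97. The caspases lay lower, with CASP6 at 26.2 ± 6.58, CASP2 at 25.6 ± 5.71, CASP8 at 19.4 ± 7.19, CASP9 at 8.93 ± 4.05 and CASP10 at 7.80 ± 3.66 CPM. Since a UMI counts a transcript end whatever the length of the transcript, these levels were not divided by length. Whether the ends of each gene were captured and counted equally well was not tested, so the genes are compared in UMIs.

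**Figure D1:**
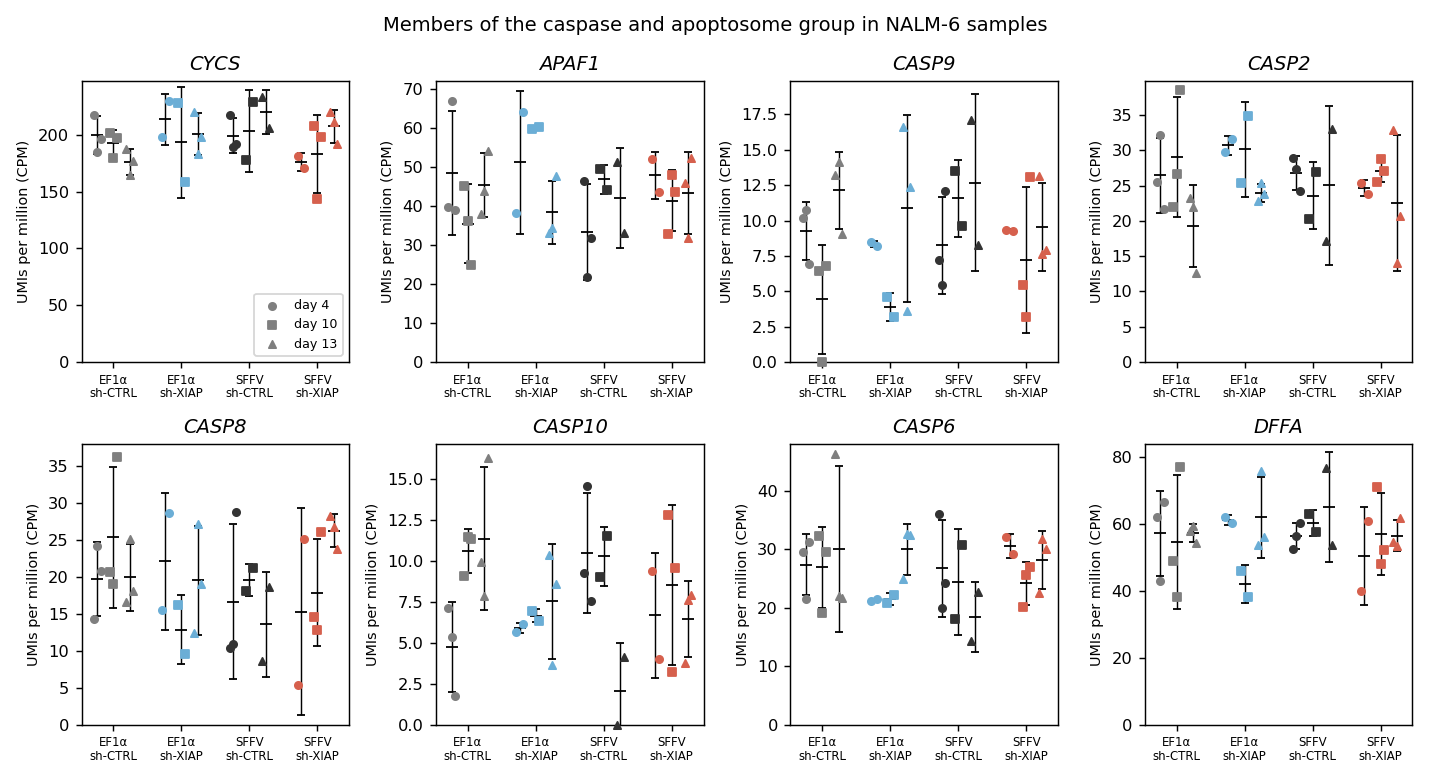
Level (CPM, vertical axis, each panel on its own scale from 0) of the 8 genes in every sample, by construct (horizontal axis, colour) and day (circle, day 4; square, day 10; triangle, day 13), with mean and SD bars over the 2 or 3 samples. CYCS lies between 144 and 234 CPM in all 31 samples, while CASP9 and CASP10 each have 1 sample at 0.

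The order of the levels was tested within samples, by flipping the sign of the difference between neighbours (permutation test over 31 samples, two-sided, adjusted over 7 pairs). The neighbours were set by sorting the same mean levels, so the order was not chosen beforehand. CYCS exceeded DFFA in 31 of 31 samples (adjusted p = 4.67e-05, from the smallest p that these permutations can give). DFFA was above APAF1 in 24 samples and below in 5 (mean difference 13.2 CPM, adjusted p = 0.00049). APAF1 exceeded CASP6 in 28 samples (17.5 CPM, adjusted p = 4.67e-05). CASP6 and CASP2 could not be ordered. Each was the higher in 14 samples, with 3 ties (mean difference 0.622 ± 9.003 CPM, adjusted p = 0.705). CASP2 was above CASP8 in 24 samples (6.17 CPM, adjusted p = 0.00056), and CASP8 was above CASP9 in 28 (10.5 CPM, adjusted p = 4.67e-05). CASP9 and CASP10, the scarcest members, could not be ordered either (1.13 ± 5.74 CPM, adjusted p = 0.333).

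At these levels much of the spread between samples was of the size that counting alone gives. The coefficient of variation (CV, the SD over the mean) of CYCS was 11.2% over all samples, where counting at its mean UMI count gives 8.71%. For CASP9 it was 45.4% against 40.5%, and for CASP10 46.9% against 44.3%. Counting at the mean UMI count leaves out the unequal library sizes, so these expected values are too low. A chi-square test of each gene's UMIs against the library totals, over all 31 samples whatever their construct or day, gave ratios to the degrees of freedom from 0.75 for CASP2 to 1.62 for CASP8. CASP8 and APAF1 (ratio 1.54) had the most spread beyond counting. In the chi-square test over 31 samples their p was 0.0173 and 0.0296, and 0.118 for both after adjustment over all members. For CASP2, CASP6, CASP9, CASP10 and DFFA the ratio was at most 1.03.

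**Figure D2:**
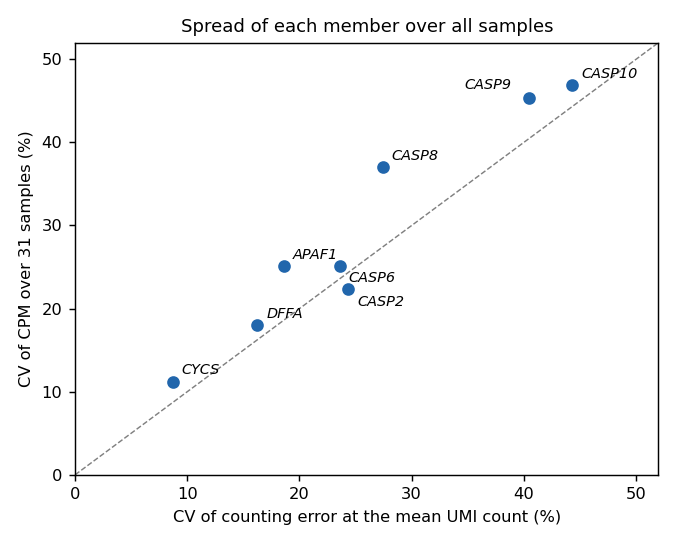
Coefficient of variation of CPM over the 31 samples (vertical axis, %) against that expected from counting at the mean UMI count (horizontal axis, %), 1 point per gene, with the line of equality dashed. CASP8 and APAF1 lie farthest above the line, and CASP2 lies below it. The expected values leave out the unequal library sizes, so a point above the line need not exceed counting.

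With strong XIAP KD, the question was whether the caspases or the apoptosome components were expressed at another level than with the matching control vector. None of the 8 genes passed limma-voom's adjusted p of 0.25, the study's threshold, at days 10 and 13 (0 members also at an unadjusted p under 0.05). Over all genes tested, 0.0792% passed the adjusted threshold and 5.59% had an unadjusted p under 0.05. The intervals of 5 of the 8 lay within a 2-fold change either way. Their median log2 fold change was −0.04, against −0.02 over all genes.

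CYCS and APAF1 lay close to their controls. CYCS ranged from 144 to 220 CPM over the 6 SFFV/sh-XIAP samples (median 203), against 178 and 229 CPM at day 10 and 234 and 206 at day 13 with SFFV/sh-CTRL. The groups overlapped. Its log2 fold change was −0.08 (SE 0.10, 95% interval −0.29 to 0.12, adjusted p = 0.963), an interval of 0.82 to 1.08 as a fold, the narrowest of the group. APAF1 lay between 31.8 and 52.3 CPM with SFFV/sh-XIAP (median 44.8), and with SFFV/sh-CTRL its values were 49.5, 44.2, 51.3 and 33.0 (log2 fold change −0.09, −0.51 to 0.34). The pooled UMI ratio of strong KD to control was 0.958 for CYCS (exact 95% interval 0.849 to 1.08, counting error only) and 0.964 for APAF1 (0.738 to 1.27). CASP9, the caspase that the apoptosome activates, ranged from 3.20 to 13.2 CPM with SFFV/sh-XIAP (median 7.78), and read 13.5, 9.61, 17.1 and 8.25 with SFFV/sh-CTRL. With 44 and 21 UMIs behind these groups, the log2 fold change of −0.39 had a wide interval (−1.34 to 0.55, adjusted p = 0.963).

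Among the other initiators, CASP8 showed the largest estimate of strong KD. It ranged from 12.8 to 28.2 CPM with SFFV/sh-XIAP (median 24.9), with 4 of the 6 samples above the highest control. The SFFV/sh-CTRL values were 18.0 and 21.1 at day 10 and 8.55 and 18.6 at day 13, with UMI counts of 3 to 11 a sample. The 4 samples above them came from libraries of 630726 to 1148669 UMIs, and the other SFFV/sh-XIAP samples from 548598 and 312852. These SFFV/sh-CTRL libraries held at most 520334 UMIs. Whether the level of CASP8 followed library size was not tested. The log2 fold change was 0.43 (SE 0.31, −0.19 to 1.05, adjusted p = 0.935), and the exact permutation test, two-sided, gave p = 0.219 for 6 against 4 samples. CASP10, its neighbour on chromosome 2, had a log2 fold change of 0.36 (−0.59 to 1.31), and its sign turned when SFFV/sh-CTRL day 13 replicate 1, which had 0 CASP10 UMIs, was left out (−0.12). A count of 0 there allowed up to 8.55 CPM (3 UMIs of 351081). CASP2, which the PIDDosome activates, was at 24.8 ± 6.65 CPM (n = 6) against 24.3 ± 7.09 (n = 4), with a log2 fold change of −0.0053 (−0.53 to 0.52). Downstream, CASP6 was at 26.2 ± 4.44 against 21.4 ± 7.11 CPM (log2 fold change 0.22, −0.33 to 0.77), and DFFA at 56.8 ± 8.32 against 62.8 ± 10.2 (−0.17, −0.52 to 0.18).

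**Figure D3:**
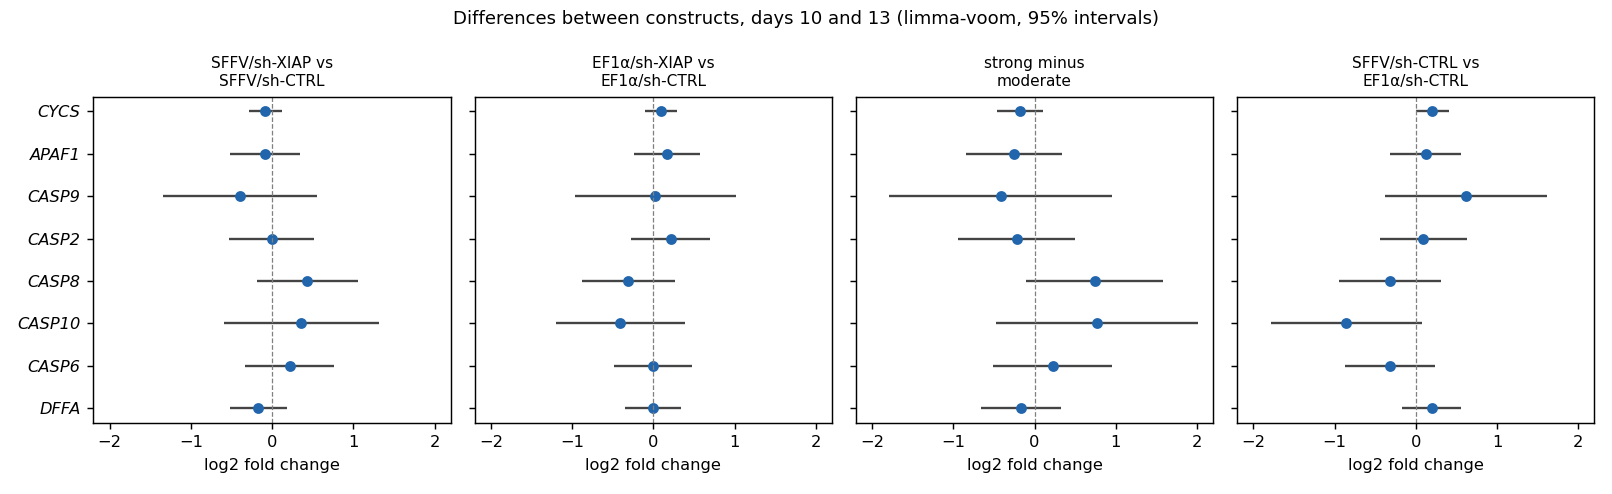
Log2 fold changes (horizontal axis) of the 8 genes at days 10 and 13 from limma-voom, in 4 comparisons of constructs, with 95% intervals as lines. Every interval crosses 0, and that of CYCS is the shortest in each panel.

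Moderate XIAP KD was compared with EF1α/sh-CTRL in the same way, and again 0 of 8 members passed by limma-voom, with 0 at an unadjusted p under 0.05. Of all genes, 0.017% passed and 4.63% were under 0.05 unadjusted. CYCS read 228 and 159 CPM at day 10 and 220, 183 and 198 at day 13 with EF1α/sh-XIAP, and 165 to 201 over the 6 EF1α/sh-CTRL samples (median 183). Its log2 fold change was 0.10 (−0.10 to 0.29). APAF1 was at 59.9 and 60.3 CPM in both day 10 samples with EF1α/sh-XIAP, where the 3 controls were at 45.2, 36.2 and 24.9. These KD values rested on 26 and 19 UMIs. Fitted on day 10 alone, APAF1 had a limma-voom p of 0.0162 (adjusted p = 0.834), where 970 of 17070 genes were under 0.05 unadjusted. At day 13 APAF1 was at 33.2, 34.4 and 47.7, where the controls were at 38.1, 43.9 and 54.2. Over both days it differed by 0.17 (−0.24 to 0.57, adjusted p = 0.992). CASP9 differed by 0.02, with an interval from −0.97 to 1.01.

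CASP10 was the member that set the EF1α groups farthest apart. It read 6.91 and 6.35 CPM at day 10 and 10.4, 3.62 and 8.59 at day 13 with EF1α/sh-XIAP (21 UMIs in all), against 7.84 to 16.3 with EF1α/sh-CTRL (median 10.6, 38 UMIs). The exact permutation test gave p = 0.0346, and 0.819 after adjustment over the 56 permutation tests of the 8 genes and 7 comparisons, of which 2 had an unadjusted p under 0.05. The limma-voom log2 fold change was −0.41 (SE 0.39, −1.20 to 0.39, adjusted p = 0.992). CASP8 differed by −0.31 (−0.87 to 0.26), CASP2 by 0.22 (−0.27 to 0.70), CASP6 by −0.0053 (−0.48 to 0.47) and DFFA by −0.00019 (−0.34 to 0.34).

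The effects of the strong and the moderate KD were then set against each other in 1 model, as the difference of their log2 fold changes. By limma-voom 0 of 8 members passed and 0 had an unadjusted p under 0.05, where 0.00566% of all genes passed and 5.06% were under 0.05 unadjusted. The largest differences were 0.77 for CASP10 (SE 0.62, −0.48 to 2.01) and 0.74 for CASP8 (SE 0.42, −0.11 to 1.59, adjusted p = 0.964). The CASP10 difference includes its strong KD estimate, whose sign turned without SFFV/sh-CTRL day 13 replicate 1. For CYCS the difference was −0.18 (−0.46 to 0.10) and for APAF1 −0.25 (−0.84 to 0.34). Against the mean of the 3 other constructs, strong KD gave 0 of 8 calls and 0 under an unadjusted 0.05, in a comparison where 0.837% of all genes passed and 6.46% were under 0.05. All 8 intervals lay within a 2-fold change there, from CYCS at 0.02 (−0.12 to 0.17) to CASP8 at 0.32 (−0.09 to 0.74, adjusted p = 0.867).

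The control vectors differ in the promoter, and were compared as a background for the KD effects. SFFV/sh-CTRL against EF1α/sh-CTRL gave 0 of 8 calls by limma-voom, with 0 members under an unadjusted 0.05 (all genes, 0.00566% and 5.15%). CYCS was at 212 ± 25.4 CPM (n = 4) with SFFV/sh-CTRL and 184 ± 13.6 (n = 6) with EF1α/sh-CTRL, a log2 fold change of 0.20 (SE 0.10, −0.0032 to 0.41, adjusted p = 0.923). CASP10 was at 6.17 ± 5.13 against 10.98 ± 2.94 CPM (−0.86, −1.79 to 0.07, adjusted p = 0.923). At day 10 the CASP10 means were 10.3 and 10.6 CPM, and at day 13 they were 2.06 and 11.4, where both SFFV/sh-CTRL samples together held 2 CASP10 UMIs and replicate 1 held 0. These SFFV/sh-CTRL samples are also the controls of the strong KD, and the EF1α/sh-CTRL samples those of the moderate KD, so the 3 sets of values share samples.

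Time after transduction was compared with the construct as a covariate. Between day 4 and day 13, 0 of 8 members passed by limma-voom and 0 were under an unadjusted 0.05, against 0.515% and 6.46% of all genes, and all 8 intervals lay within a 2-fold change. CYCS stood at 198 ± 18.4 CPM (n = 10) at day 4, 192 ± 27.6 (n = 10) at day 10 and 199 ± 20.9 (n = 11) at day 13, with means less than 1 SD apart and a log2 fold change from day 4 to day 13 of −0.0041 (−0.13 to 0.12). DFFA and APAF1 differed by 0.05 (−0.16 to 0.26) and −0.08 (−0.37 to 0.20). CASP2 lay between 12.7 and 33.0 CPM at day 13 (median 22.8), and between 21.7 and 32.2 at day 4 (median 26.4), a log2 fold change of −0.26 (−0.55 to 0.04, adjusted p = 0.837).

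From day 10 to day 13, 0 of 8 members passed (all genes, 0.0226%), and 1 member, CASP9, had an unadjusted p under 0.05, where 5.98% of all genes did. CASP9 ranged from 0 to 13.5 CPM at day 10 (median 5.96, 41 UMIs in 10 samples) and from 3.62 to 17.1 at day 13 (median 12.4, 80 UMIs in 11 samples). The ranges overlapped. Its log2 fold change was 0.73 (SE 0.29, 0.14 to 1.31, p = 0.0166, limma-voom adjusted p = 0.759), and the permutation test gave p = 0.0248, or 0.819 adjusted over the 56 tests. The mean was higher at day 13 in each construct, 12.1 against 4.42 CPM for EF1α/sh-CTRL, 10.9 against 3.89 under moderate KD, 12.7 against 11.6 for SFFV/sh-CTRL and 9.57 against 7.24 under strong KD. At day 4 CASP9 had stood at 8.79 ± 1.96 CPM (n = 10), between the means of both later days. The sample with 0 CASP9 UMIs, EF1α/sh-CTRL day 10 replicate 2, allowed a level of up to 5.72 CPM (3 UMIs of 524479). Without this sample the log2 fold change was 0.46 and limma-voom's unadjusted p was no longer under 0.05 (adjusted p = 0.868). The same held for thinned counts (0.61, adjusted p = 0.985) and for the sh-XIAP constructs alone (0.48, adjusted p = 0.907), and the filterByExpr filter removed CASP9. The estimates of CASP10, CASP2 and APAF1 had the opposite sign. CASP10 was at 9.11 ± 2.93 CPM at day 10 and 7.28 ± 4.34 at day 13 (−0.47, −1.10 to 0.16). CASP2 was at 27.6 ± 5.49 and 22.5 ± 6.57 CPM (−0.27, −0.56 to 0.02). APAF1 differed by −0.05 (−0.34 to 0.24) and CYCS by 0.04 (−0.09 to 0.17). CASP6 differed by 0.16 (−0.15 to 0.46), CASP8 by 0.07 (−0.38 to 0.52) and DFFA by 0.15 (−0.07 to 0.37).

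At day 4 there were 2 sh-XIAP samples against 3 controls for each promoter, where an exact permutation test cannot go below p = 0.2. With strong KD, 0 of 8 members passed by limma-voom and 0 were under an unadjusted 0.05 (all genes, 0.0109% and 4.73%). CYCS was at 182 and 171 CPM with SFFV/sh-XIAP and at 217, 189 and 192 with SFFV/sh-CTRL (log2 fold change −0.20, −0.45 to 0.05, limma-voom adjusted p = 0.979). APAF1 was at 52.1 and 43.7 against 46.4, 21.8 and 31.7 CPM (0.47, −0.09 to 1.03, adjusted p = 0.979). With moderate KD at day 4 the calls were again 0 of 8, with 0 under 0.05 unadjusted (all genes, 0.0491% and 4.5%). CYCS was at 198 and 230 CPM against 218, 185 and 197. CASP6 was at 21.2 and 21.4 CPM with EF1α/sh-XIAP and at 21.5 to 31.2 in the 3 controls, with a log2 fold change of −0.41 (−1.01 to 0.20).

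Across all 72 tests of a member in a comparison, limma-voom called 0, with 1 under an unadjusted 0.05. The edgeR quasi-likelihood test called 0 with 2 under 0.05, DESeq2 0 with 1, and limma-trend 0 with 3. Over all genes and the 9 comparisons, 5.39% of tests were under 0.05 by limma-voom, 5.17% by edgeR, 2.18% by DESeq2 and 5.55% by limma-trend. For CYCS, the intervals of both KD effects lay between 0.82 and 1.22 as a fold, whereas those of CASP9 and CASP10 were wider. With strong KD the interval of CASP9 ran from 0.395 to 1.47 as a fold and that of CASP10 from 0.665 to 2.48, and with moderate KD they ran from 0.512 to 2.02 and from 0.436 to 1.31.

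Within a library the partners of the apoptosome can be set against each other by their UMIs, pooled over days 10 and 13. There were 22.4 APAF1 UMIs per 100 of CYCS for EF1α/sh-CTRL (exact 95% interval 18.6 to 26.8, counting error only) and 23.0 under moderate KD (18.9 to 27.9). For SFFV/sh-CTRL there were 20.8 (16.1 to 26.6) and under strong KD 20.9 (17.8 to 24.5). These intervals overlapped throughout. CASP9 had between 20 (moderate KD) and 26.6 UMIs (SFFV/sh-CTRL) per 100 of APAF1. XIAP and its target CASP9 were similarly scarce, with 40 XIAP and 30 CASP9 UMIs for EF1α/sh-CTRL, 26 of each under moderate KD, 19 and 21 for SFFV/sh-CTRL, and 39 and 44 under strong KD. Per 100 of CASP9, XIAP stood at 88.6 (56.1 to 140) under strong KD and 90.5 (46.0 to 177) in its control, and at 133 (81.0 to 222) in the control of the moderate KD.

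Some of these counts can hold reads of other loci. The table lists 20 processed pseudogenes of CYCS, with 277 UMIs together, 6.35% of the CYCS family, led by CYCSP27 (92 UMIs) and CYCSP39 (51). Between samples this share ran from 2.25% to 16.7%. With the pseudogenes added, CYCS stood at 212 ± 20.9 CPM with SFFV/sh-XIAP and 225 ± 30.1 with SFFV/sh-CTRL at days 10 and 13, and no member was called in any comparison. The annotated 3′ end of CASP6 overlaps MCUB (1680 UMIs) by 105 bases on the opposite strand, and that of APAF1 lies within ANKS1B (438 UMIs), also on the opposite strand. Whether the counting used strand is not given in the sources used here, so reads of these pairs may not have been told apart. CASP9 overlaps CELA2B at its end, which was not analysed here.

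The rest of the pathway was read from lists written by hand. Of 9 regulators of the apoptosome and XIAP, among them HTRA2, AVEN and PTMA, 0 passed among the 9 tested in each comparison of constructs at days 10 and 13 and the 8 tested in the others, where DIABLO was too low, and the smallest adjusted p over the 3 lists given here and all comparisons, 0.5, was among them from day 10 to day 13. DIABLO, the mitochondrial antagonist of XIAP, had 17 UMIs in all. Overlapping genes were looked up for the 8 members alone, so whether DIABLO reads were counted elsewhere was not tested. The 6 adaptors and modulators of caspase activation, such as FADD, CRADD, PYCARD and CFLAR, gave 0 calls. So did the 13 substrates and effectors, such as PARP1, ACIN1 and DFFB, the nuclease that DFFA holds in check. With strong KD the median log2 fold changes were −0.09 for the regulators, −0.23 for the adaptors and modulators and 0.07 for the substrates, beside −0.02 over all genes. With moderate KD they were −0.04, −0.03 and −0.06, beside 0.01.

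Over the 12 means of construct and day, the genes with the pattern most like that of CYCS, among 7909 genes of at least 20 CPM on average, were TRRAP (Pearson's r = 0.84), LYPLA1 (0.83) and BTN2A1 (0.82). For DFFA they were PHLDB2 (0.93), AC000089.1 (0.91) and API5 (0.89). These are the highest of 7909 values over 12 points that share libraries, and are given as a description.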

How the data were processed

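The authors deposited 1 table of UMI counts made with prime-seq, a bulk form of SCRB-seq, whole numbers per Ensembl gene and sample, without normalization. The submitters' processing notes name STAR 2.6.0a and the builds hg38, GRCh38, mm10 and GRCm38, and the annotation, counter and strand setting were not given in the sources used here. Of 30667 identifiers, 29928 were found in GENCODE 29, which gave symbols and coordinates. All 31 columns were matched to samples by title, and none was left out.

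Genes over 1 CPM in at least 1/3 of samples were tested by limma-voom (limma 3.58.1, edgeR 4.0.16, R 4.3.3) with TMM normalization, terms for construct and day, and the Benjamini-Hochberg method at an adjusted p of 0.25. Days 10 and 13 (21 samples) served for constructs, all 31 samples for days, and day 4 (10 samples) had a fit of its own. The study's methods tell of 5 outlying samples left out. The titles number replicates up to 3, and 5 of the 36 possible titles are absent from the 31 samples analysed here. Whether these are the samples left out is not stated, and all 31 were kept. Single values were compared in CPM by two-sided exact permutation tests, with 100000 resamples where both groups had 10 or more samples (SciPy 1.17.1). Intervals of pooled UMI ratios are exact binomial ones at 95%, and like the floor of 3 counts cover counting error only. Replicates of a group differed by more than sampling noise in all 26 pairs (chi-square per gene 1.08 to 2.74).

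The members, gene lists and tests were chosen with earlier results of these data known. Named genes were the 8 members, XIAP, list genes past the threshold (of which there were none; levels and examples of the lists were named beyond that), and the 3 genes most alike to the 2 members with most UMIs. Alternatives were edgeR's quasi-likelihood test, DESeq2 1.42.0, limma-trend, other normalizations and filters, thinned counts, a depth covariate, a replicate block, other sets of samples, and each sample left out. The fit was tested on simulated data. Some genes of the lists are not reported here.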

Additional observations from a re-analysis of the deposited data

Results flagged for a closer look

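In the 32 groups of a member and a construct at days 10 and 13, 2 samples stood apart from the rest of their group by Dixon's test, where chance gives about 1 in 20. CYCS was at 144 CPM in SFFV/sh-XIAP day 10 replicate 2, against 192 CPM in the next lowest of the 6 samples. This library had the fewest UMIs of all, 312852, with 45 of CYCS, and in it the CYCS pseudogenes took 16.7% of the family, the highest share of any sample. Without it the log2 fold change of CYCS with strong KD was −0.02. CASP2 was at 34.9 CPM in EF1α/sh-XIAP day 10 replicate 2, against 25.3 CPM in the next highest of the 5 samples, and this value rested on 11 UMIs in the second smallest library (315055 UMIs).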

How the results depend on the processing

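The count of members called was 0 in all 9 comparisons under all 126 other alternatives. It was also 0 in all 125 fits that left out 1 sample (0 to 0 in each comparison). The 126 include the same fits at an adjusted p of at most 0.05, which could add no call in any comparison. Some other settings called 0 of all genes, as DESeq2 did with strong KD, so no member could be called there. The smallest adjusted p of any member was 0.472, for strong minus moderate KD without a filter on low counts. Over all genes the counts did depend on the setting, from 0 to 107 with strong KD (14 in the report), 0 to 23 with moderate KD (3), 0 to 34 for their difference (1), 41 to 217 for strong KD against the other constructs (148), 0 to 32 between the control vectors (1), 23 to 128 from day 4 to day 13 (91), 1 to 38 from day 10 to day 13 (4), and 0 to 25 and 0 to 29 for strong and moderate KD at day 4 (2 and 9).

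Of the members' log2 fold changes with strong KD, 106 of the other alternatives kept the sign and 12 turned it, as did 12 of the fits without 1 sample against 68. CASP2 (−0.0053) turned with edgeR (0.011), limma-trend (0.011), no TMM (0.015), no filter (0.038), the depth covariate (0.00055), the constructs compared alone (0.0048), day 10 alone (0.17) and both sh-CTRL constructs as control (0.040). With both controls CASP10 was −0.067 and CYCS 0.018, CASP10 was −0.23 at day 10 alone, and APAF1 was 0.067 at day 13 alone. The cause was not tested. Leaving out 1 sample, CASP2 ran from −0.12 to 0.22, CASP10 from −0.12 to 0.77, APAF1 from −0.20 to 0.028 and CYCS from −0.13 to 3.01e-05. CASP8 kept its sign, from 0.25 to 0.62, as did CASP9, from −0.78 to −0.21.

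Deviations from the group means were no closer between samples of 1 replicate number than between others (mean correlation of deviations −8.28e-05 over 149 pairs, 9.77e-05 over 290 pairs of other numbers), so numbers were not taken as pairs. A replicate block called 0 members in every comparison, with CYCS at −0.09 and CASP9 at −0.65 with strong KD, and moved the count over all genes from 14 to 7 with strong KD and from 2 to 25 at day 4.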
